A study of Rattus norvegicus with 4 samples.

Results

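WT1 and retinaldehyde dehydrogenase 2 (Aldh1a2) were 2 of the 1185 spots on nylon cDNA arrays hybridized with RNA of rat mesenteric white adipose tissue. They were picked by array code, WT1 as spot A10f, named Wilms' tumor protein in the array files, and Aldh1a2 as spot C08f, named there as the aldehyde dehydrogenase specific for retinaldehyde, because both genes are known in the mesothelium that covers visceral fat. They were picked with their intensities on these arrays known, so that all levels and ratios of both genes are given as a description, without a test. Female Wistar rats of 220 to 230 g received oleoyl-estrone (OE, the oleic acid ester of estrone) by daily gavage at 10 μmol/kg in 0.2 ml of sunflower oil, or the oil alone, and the tissue was taken at 48 h. Each rat had its own array, named here control 1, control 2, OE 1 and OE 2. The arrays had a background of 60, 54, 61 and 61, a median adjusted intensity (spot intensity minus background) of 14, 9, 22 and 17, and between 152 and 246 genes detected, which here means that the adjusted intensity reached 2 times the background. The 2 arrays per group limit the precision of every value. Some genes, such as PDGF receptor alpha, had more than 1 spot, and each spot counts as a gene below.

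WT1 is a zinc finger transcription factor that is best known from the kidney and the gonads, and it marks mesothelial cells in the adult abdomen. Aldh1a2 oxidizes retinaldehyde to retinoic acid, the ligand of the nuclear retinoic acid receptors, and during development it is made in the mesothelium of the heart and the abdominal organs, where WT1 is a known regulator of it. It is a different enzyme from mitochondrial aldehyde dehydrogenase 2, which had a spot of its own. A cDNA spot does not tell splice forms of WT1 apart.

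Windows around the annotated starts of the 2 genes are shown. Whether transcription begins there was not checked, so the windows need not be the promoters. They were chosen because a regulatory link between the genes is known and because both signals were highest on the same array. That array, control 2, was also the highest for 416 of 922 genes (45.1%), in intensities divided by the array median. RefSeq (GRCr8) gives a window of 250 bases before to 50 bases after the start of each gene, and both genes were matched to it by symbol. The WT1 window is chr3:112021759-112022058 and the Aldh1a2 window is chr8:80758391-80758690, both on the forward strand, written 5′ to 3′ with the CCAAT motif, which the WT1 window does not hold, in capitals.
WT1: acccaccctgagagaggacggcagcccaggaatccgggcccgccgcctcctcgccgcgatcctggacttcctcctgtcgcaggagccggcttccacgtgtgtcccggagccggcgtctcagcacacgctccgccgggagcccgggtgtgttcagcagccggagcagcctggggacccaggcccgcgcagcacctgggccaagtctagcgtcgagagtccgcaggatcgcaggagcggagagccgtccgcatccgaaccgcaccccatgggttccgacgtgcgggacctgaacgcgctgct
Aldh1a2: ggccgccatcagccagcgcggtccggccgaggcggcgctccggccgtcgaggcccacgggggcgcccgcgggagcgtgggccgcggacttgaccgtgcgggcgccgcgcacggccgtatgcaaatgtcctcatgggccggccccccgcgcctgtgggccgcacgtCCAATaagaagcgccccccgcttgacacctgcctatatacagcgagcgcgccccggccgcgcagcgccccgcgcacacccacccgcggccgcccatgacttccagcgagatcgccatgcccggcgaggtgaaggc
Both windows were rich in G and C, with 71% for WT1 and 76% for Aldh1a2 against a median of 51.7% over 33469 RefSeq windows of this length. The motif CCAAT was found in the Aldh1a2 window, 85 bases before the start, and in 37.5% of all windows on either strand. TATAAA was found in neither window and in 14.2% of all. The letters GCGGGGGCG, a site bound by WT1 and by the related factor EGR1, were found in neither window, in a search of both strands, and in 2.73% of all windows. The variant GCGTGGGCG was also absent from both windows and was found in 0.544% of all.

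Both genes gave a clear signal on a single array, control 2. The adjusted intensity of WT1 (A10f) was 19 in control 1 but 278 in control 2, and it was 121 in OE 1 and 37 in OE 2. Only control 2 exceeded 2 times the background, and OE 1 lay just under its limit of 122. The adjusted intensity of Aldh1a2 (C08f) was 30 in control 1 but 165 in control 2, and it was 10 in OE 1 and 46 in OE 2. Again only control 2 exceeded the limit. In this pattern of detection on control 2 alone the 2 genes were among 27 of the 1185 spots (2.28%). Neither gene had its groups apart, since control 1 lay below both OE arrays for WT1 and between them for Aldh1a2. The order of these 3 arrays is that of values under the limit of detection.

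**Figure D1:**
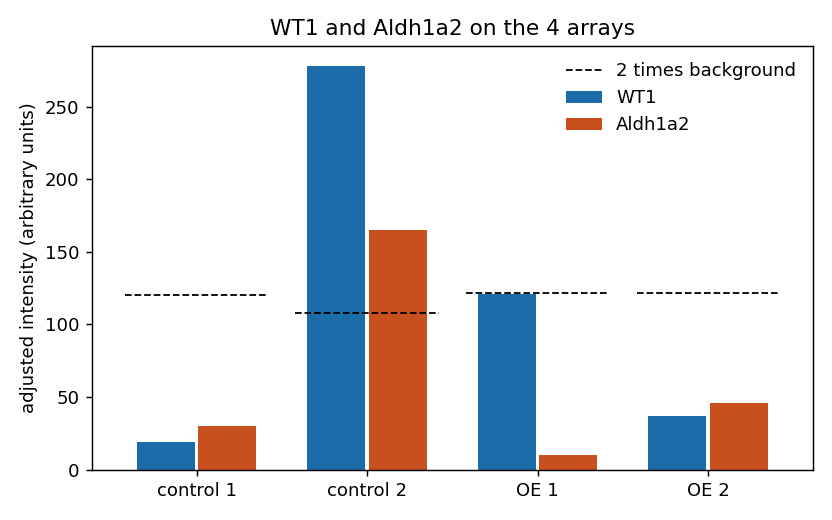
Adjusted intensity (arbitrary units) of WT1 and Aldh1a2 on each of the 4 arrays, with a dashed line at 2 times the background of the array. The bars of control 2, at 278 and 165, are the only ones above the line, and the WT1 bar of OE 1, at 121, ends just under it.

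For comparison between arrays each adjusted intensity was scaled to the median (50th percentile) of its own array, and these scaled levels are given in array medians. WT1 then had 1.36 and 30.9 in the control rats and 5.50 and 2.18 in the OE rats, in the order of their numbers. The mean scaled level was 16.1 ± 20.9 (SD, n = 2) with oil and 3.84 ± 2.35 (SD, n = 2) with OE, which gave a ratio of OE to control of 0.238. Control 2 thus held 77.4% of the summed WT1 level of the 4 arrays, and the SD of the controls was larger than the difference between the group means. Without control 2 the WT1 ratio was 2.83, that is, in the other direction.
Aldh1a2 had 2.14 and 18.3 array medians in the control rats and 0.455 and 2.71 in the OE rats. The mean scaled level was 10.2 ± 11.45 (SD, n = 2) with oil and 1.58 ± 1.59 (SD, n = 2) with OE, which gave a ratio of 0.154, with an SD of the controls that again exceeded the difference. Control 2 held 77.6% of the sum. Without control 2 the ratio was 0.737, which rests on OE 1, since OE 2 lay above control 1. In both genes the signal of the OE arrays did not reach 2 times the background, and neither did that of control 1. With each OE array set to its lowest detected level, the geometric mean of control over that of OE was 1.018 for WT1. For Aldh1a2 it was 0.9855. The ratios are thus a description, and no fold between the groups can be given.

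The levels of the single rats were also compared with control 2. In array medians, WT1 on control 2 was at least 3.545-fold higher than on control 1. It was at least 5.525-fold higher than on OE 1 and at least 4.269-fold higher than on OE 2. Each of these arrays was set to its lowest detected level. For Aldh1a2 the same bounds were 2.10, 3.28 and 2.53. Neither gene was detected on the other arrays. The ratios of OE to control take such levels as measured, whereas these bounds do not. The bounds hold only for scaling to the array median, which was lowest on control 2. Without scaling WT1 had 278 on control 2 and 121 on OE 1. Per 1000 units of FABP4, an adipocyte gene that was highest on control 2, WT1 had 14.6 on control 2 and 13.7 on OE 1. Aldh1a2 had 8.67 on control 2 and 8.49 on control 1 on that scale. Over the whole table, control 2 was the array with the highest scaled level for 416 of the 922 genes that entered the comparison (45.1%).

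On the whole table of 922 genes limma (lmFit and eBayes, Benjamini-Hochberg adjustment) called 0 genes (0%) at an adjusted p under 0.05, with a smallest adjusted p of 0.957, and 19 genes (2.06%) at an unadjusted p under 0.05. The ratio fell under 0.5, the cutoff used in the study, for 169 of the 922 genes (18.3%), and exceeded 1.5 for 174 (18.9%). WT1 and Aldh1a2 were among the 169 in the main setting, whereas WT1 passed 0.5 under 5 alternatives that kept all 4 rats, with ratios from 0.532 to 0.905, and reached 2.06 when ratios within sample numbers were averaged. The genes under 0.5 were 49.3% of those past either cutoff, 89.8% when the housekeeping genes set the scale and 5.65% with no scaling at all. Both OE arrays lay below both controls for 146 genes (15.8%) and above both for 130 (14.1%), and neither WT1 nor Aldh1a2 was among them.

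**Figure D2:**
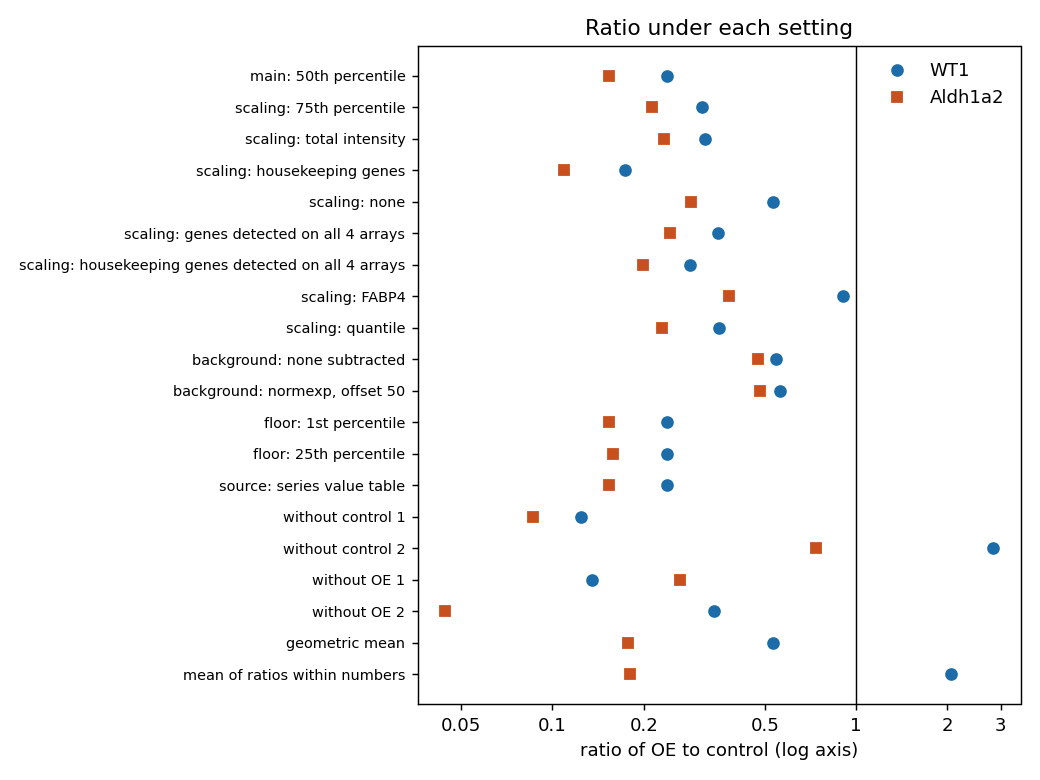
Ratio of the OE mean to the control mean (log axis) of WT1 and Aldh1a2 with the main setting and with each alternative, and a vertical line at 1. The Aldh1a2 ratios run from 0.0444 to 0.737, and WT1 crosses 1 when control 2 is left out (2.83) and when the ratios within the sample numbers are averaged (2.06).

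The genes whose pattern over the 4 arrays was most like that of WT1 or Aldh1a2 were sought among 678 candidates, the genes above 0.235 array medians, the lowest level used, on all 4 arrays. Likeness was the root mean square difference of the log2 scaled levels after centring each gene on its own mean. Over 4 arrays it is a description, and it rests for WT1 and for Aldh1a2 on 3 values that were not detected. All genes share the depth and background of the arrays.
Nearest to WT1 was IGFBP-6, a secreted protein that binds insulin-like growth factors, at a difference of 0.32. Its adjusted intensity was 18 and 388 in the controls and 176 and 65 in the OE rats, in the same order of arrays as WT1, and it was detected in control 2 and OE 1. It was followed by the nociceptin precursor, which yields an opioid-like peptide, at 0.36, by the lysosomal protease cathepsin D at 0.37, by mitochondrial HMG-CoA synthase, which makes ketone bodies, at 0.43 and by the beta 1 subunit of the sodium channel at 0.44. Mitochondrial HMG-CoA synthase had 70.2 array medians on control 2 against 1.57, 7.18 and 4.65 on control 1, OE 1 and OE 2, and was detected in control 2 and OE 1. Cathepsin D was detected on control 2 alone, and the nociceptin precursor and the sodium channel subunit on no array.
For Aldh1a2, aquaporin 7, the glycerol channel of adipocytes, was nearest at 0.61, with adjusted intensities of 10, 39, 6 and 9 on control 1, control 2, OE 1 and OE 2, none of them detected. It was followed by 11-beta-hydroxysteroid dehydrogenase 2, which inactivates glucocorticoids, at 0.78, adenylate kinase 3 at 0.81, the prohormone-processing carboxypeptidase E at 0.82 and short-branched-chain acyl-CoA dehydrogenase at 0.88. In all 5 of these the scaled level was highest on control 2 and lowest on OE 1, an order that their choice by likeness favours. Adenylate kinase 3 and carboxypeptidase E were detected, on control 2 alone. The difference between WT1 and Aldh1a2 was 1.67, and came from arrays on which neither gene was detected. By this measure Aldh1a2 ranked 387 of 678 candidates in likeness to WT1, and WT1 ranked 227 of 678 in likeness to Aldh1a2.

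**Figure D3:**
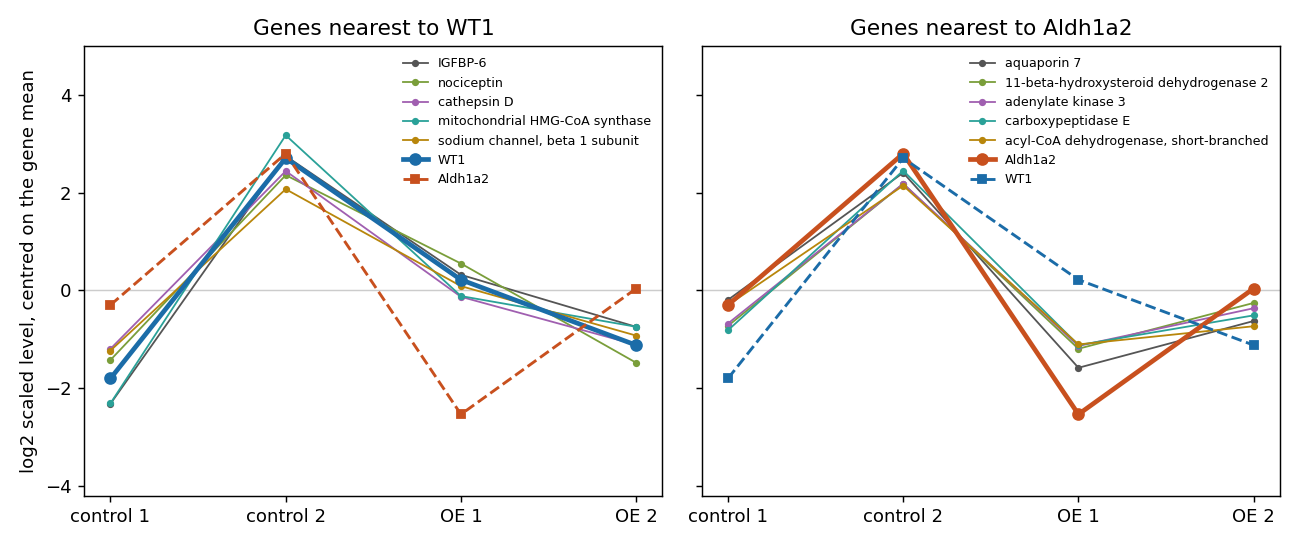
Log2 scaled level, centred on the mean of each gene, of WT1 (left) and Aldh1a2 (right) as thick lines, with the 5 nearest genes as thin lines and the other gene of the pair dashed. All lines peak on control 2, and the WT1 and Aldh1a2 lines part on the other arrays, where neither gene was detected.

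Few other genes of the mesothelium were on the array. Of the list set up for this cell type (with keratins, mesothelin, uroplakins and podoplanin among others), calretinin and ezrin had a spot, beside WT1 and Aldh1a2 themselves. Calretinin, a calcium-binding protein used to stain mesothelium, had adjusted intensities of 4, 3, 17 and 14 on control 1, control 2, OE 1 and OE 2, and was not detected on any array. Ezrin, a linker of actin and membrane that many epithelial cells make, was detected on all 4 arrays with 45.5, 39.1, 46.95 and 44.65 array medians in the same order. Its lowest level was that of control 2, the array on which WT1 and Aldh1a2 were highest. The array thus holds no further specific marker with a signal by which the label of mesothelial genes could be checked in these samples, and in RNA of whole tissue fewer cells of a type and less RNA per cell cannot be told apart.

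Control 2 also stood apart in adipocyte and leukocyte genes, and their part in the levels of WT1 and Aldh1a2 was not tested. Adipocyte genes (8 on the array) were highest on control 2 for 7 of 8, scaled or not, as were 493 of all 1185 spots in scaled values. In scaled values both OE arrays lay below both controls for 3 of the 8 (FAS, ACC and aquaporin 7), against 15.8% of the 922 genes. The summed level of the list was 271.5 and 2291 array medians in the controls and 435 and 529 in the OE arrays, and leptin was at 0 on control 2. FABP4, the fatty acid-binding protein of adipocytes, made up most of that sum, with 252 and 2115 in the controls and 400.5 and 501 in the OE rats. Leukocyte genes (10 on the array) ran the other way, and control 2 was the lowest array for 9 of 10, as it was for 305 of all 1185 spots. Their summed level was 269.5 and 29.6 in the controls and 298 and 148 in the OE arrays, and CD3 zeta, CD8 and CD28 were at 0 on control 2. Detected on at least 1 array were 6 of the 8 adipocyte genes and 8 of the 10 leukocyte genes, against 285 of all 1185 spots (24.1%).
None of the 3 endothelial genes, the 2 spots of PDGF receptor alpha, the 5 pancreatic enzymes or the 6 genes of ovary and uterus, organs that also make WT1, was detected on any array. The summed level was 1.36 and 3.44 in the controls and 1.91 and 2.76 in the OE arrays for the endothelial list, and it lay between 0.682 and 2.41 on all arrays for the pancreatic list. That of the ovary and uterus list was 1.86 and 2.89 in the controls and 1.455 and 1.65 in the OE arrays, with LH receptor at 0 on control 2 and FSH receptor at 2 units there. The 2 spots of PDGF receptor alpha, a fibroblast gene, disagreed on control 2, with adjusted intensities of 98 and 3, against 44 and 22 on control 1. No podocyte gene of the list had a spot. Of 5 intestinal genes, 4 were detected, on OE 2, where their summed level was 273 against 1.93 on control 1, 1.44 on control 2 and 3.14 on OE 1.

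**Figure D4:**
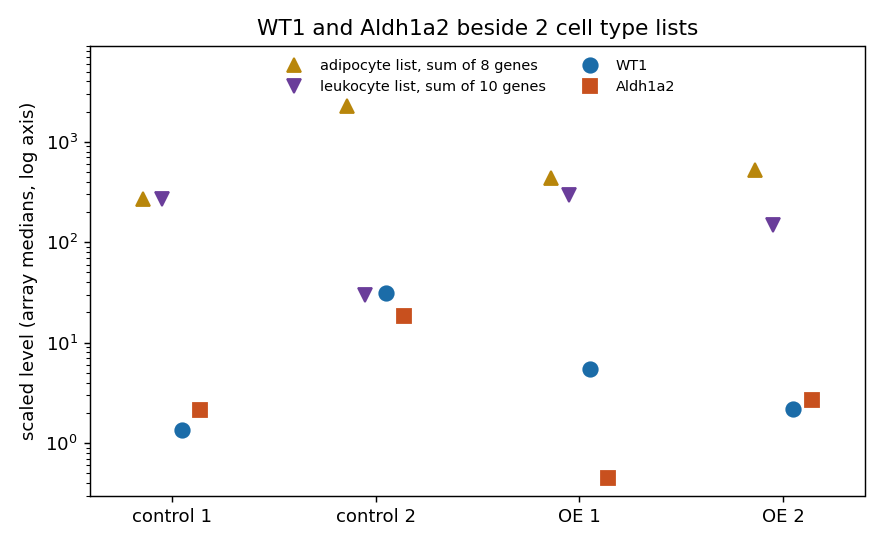
Scaled level in array medians (log axis) of WT1, Aldh1a2 and the summed adipocyte and leukocyte lists on each array, with points shifted sideways for legibility and heights to be compared between arrays only. On control 2 the adipocyte sum rises to 2291 and the leukocyte sum drops to 29.6, while WT1 and Aldh1a2 reach 30.9 and 18.3.

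Of the other retinoid genes listed, which take part in retinoid metabolism and signalling, 4 had a spot, namely retinoid X receptors alpha and beta and 2 further aldehyde dehydrogenases. Of these 4 genes 3 entered the limma fit, which called 0 higher and 0 lower, as among all 922 genes. RXR alpha, a partner of the retinoic acid receptors, was detected on control 2 and OE 1, with adjusted intensities of 89 and 143 in the controls and 153 and 84 in the OE rats. After scaling it was highest on control 2, at 15.9 array medians against 6.36, 6.95 and 4.94 on control 1, OE 1 and OE 2. RXR beta went the other way between the controls, with 3.36 on control 1 and 1.22 on control 2, and was not detected. Mitochondrial aldehyde dehydrogenase 2 and aldehyde dehydrogenase 3 stayed at or under 22 units on every array. The median log2 difference of OE and control was -0.75 over the 4 genes and -0.05 over all 1185 spots, and with scaling to FABP4 these were 0.10 and 0.44.

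Of genes known from the literature to be regulated by WT1, 14 spots were on the array. limma called 0 of them in either direction, as it called 0 of all 922 genes. The median log2 difference of the list was 0.13, against -0.05 over all 1185 spots. With scaling to the housekeeping genes the list had -0.59 and all spots -0.66. With those of them detected on all 4 arrays the list had -0.15 and all spots -0.23. At least 1 array detected 3 of the 14, a share near the 24.1% of all spots. TGF beta 1, a growth factor of tissue repair, had adjusted intensities of 73 and 29 in the controls and 327 and 94 in the OE rats, and was detected on OE 1. Ornithine decarboxylase, which starts polyamine synthesis and is a housekeeping spot of the array, had 26, 16, 140 and 99 in that order and was also detected on OE 1 alone. EGR1, the factor that shares a binding motif with WT1, had 152, 92, 404 and 149 and was detected on every array but control 2. Control 2 was the lowest of the 4 arrays for all 3 of these genes in adjusted intensity. In scaled levels it remained lowest for TGF beta 1, at 3.22, and for ornithine decarboxylase, at 1.78, whereas EGR1 had 10.2 on control 2 and 8.76 on OE 2. Over the list, control 2 was the highest array for 4 of the 14 spots and the lowest for 5. Among all 1185 spots it was the highest for 493 and the lowest for 305.

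The spots next to WT1 by array code were not detected on control 2, with the exception of nucleoside diphosphate kinase B, which was detected on all arrays. VHL and c-fos, the codes before and after WT1, had adjusted intensities of 9 and 6 on control 2. MMP14 had 43 there and nucleoside diphosphate kinase B had 333, against 152 on control 1, 385 on OE 1 and 178 on OE 2. Around Aldh1a2, arachidonate 12-lipoxygenase had 35 on control 2, lysophospholipase 72, cytochrome P450 4A3 9 and arginase 2 had 2, and none of these spots was detected on any array. Arachidonate 12-lipoxygenase followed the same order of arrays as Aldh1a2, with 4, 35, 0 and 17 on control 1, control 2, OE 1 and OE 2.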

How the data were processed

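RNA of mesenteric white adipose tissue was labelled with a radioactive isotope of phosphorus and hybridized to nylon arrays, 1 rat per array, and spots were quantified with Atlas Image. The authors deposited intensity values of each spot, of the background, and after subtraction of the background, where every value equalled the difference, or 0 if negative. Nothing had been scaled between arrays. The 12 columns in which the files repeat another array, and the software's ratios, were not used. The series table, whose rows carry no gene names, was an alternative. Its medians (14, 9, 22 and 17 for control 1, control 2, OE 1 and OE 2) equalled those of the files, and the values of WT1 and of Aldh1a2 each occurred in 1 of its rows. Its OE 1 column differed from the array file in 240 of the 933 rows that the other 3 arrays identify uniquely. In 239 of these it held the value of the preceding spot, 1 was empty, and WT1 and Aldh1a2 were not among them.

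Samples were grouped by their labels. Adjusted intensities were divided by the 50th percentile of the array, as in the study's methods, with a floor of 0.235 array medians, the 10th percentile of all scaled values over 0. For the fit, 922 genes were kept that exceeded the floor in both rats of the control or of the OE group. limma 3.58.1 in R 4.3.3 was run on their log2 values, with group as the only term. It was also run on simulated data. Their noise was below the pooled log2 SD of WT1 (2.35) and of Aldh1a2 (2.01), so they do not show its power for such genes. The study's control strength filter was not repeated here. For bounds between single rats, a level that was not detected was replaced by the lowest detected level of its array. WT1, Aldh1a2 and the gene lists were chosen with earlier results of these data known. Named genes were these 2, the 5 nearest to each by pattern, the adjacent spots and those members of the lists that were detected on at least 1 array, with a few others given for their value. Alternatives were other scalings, backgrounds, floors, filters and means, leaving out each array, and a replicate block. Scaling to FABP4, to genes detected on all 4 arrays or to such housekeeping genes was chosen after the data were seen.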

Additional observations from a re-analysis of the deposited data

How the results depend on the processing

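The ratio of OE to control stayed under 1 for Aldh1a2 under all 19 alternatives and for WT1 under 17 of 19. Every alternative except the one without control 2 used the high value of that array, so the counts are not independent support. Leaving out 1 array at a time gave 0.124 to 2.83 for WT1 and 0.0444 to 0.737 for Aldh1a2, with the highest value of each without control 2. The replicate block turned WT1: the mean of the ratios within sample numbers was 2.06, from 4.05 within number 1 and 0.0705 within number 2, and for Aldh1a2 it was 0.180. Same-numbered arrays did not deviate together (correlation of 0.0495 over 922 genes), and the labels give no link between rats of the same number. The ratio of WT1 passed 0.5 without scaling (0.532), without background subtraction (0.544), with normexp and an offset of 50 (0.562), with geometric means (0.534) and with scaling to FABP4 (0.905), whereas Aldh1a2 stayed under 0.5 there, at 0.287, 0.475, 0.484, 0.177 and 0.381. Control 2 was the highest array for both genes in the main setting and in the 12 alternatives that give a level for all 4 arrays. The WT1 groups overlapped in all 13, the Aldh1a2 groups in 10. The exceptions were scaling to FABP4, to the housekeeping genes and to those of them detected on all 4 arrays. Over all genes such overlap was counted in the main setting only. There both OE arrays lay below both controls for 15.8% of 922 genes and above both for 14.1%. The share of all genes without overlap under the exceptions is thus not known.

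limma called 0 genes, also under each of 21 alternatives, with a smallest adjusted p from 0.171 (without control 1) to 0.999 (without OE 2) and 1 to 258 genes at an unadjusted p under 0.05. With the replicate block it called 0 genes, with 17 at an unadjusted p under 0.05. No list gained a call under any of the 8 other scalings. With 1 rat left in a group, its spread was taken from the other group. The count of 169 genes with a ratio under 0.5 became 422 of 934 with scaling to the housekeeping genes, 29 of 954 without scaling, 106 of 935 with scaling to the genes detected on all 4 arrays, 82 of 961 with scaling to FABP4, 10 of 1137 without background subtraction, 10 of 1105 with normexp and 313 of 1011 without control 1. With the series table it was 21.4% of 925 genes, against 18.3%. Genes with a ratio under 0.5 were 66.5% of those past either cutoff with the housekeeping genes detected on all 4 arrays, 30.1% with all genes detected on all 4 arrays and 23.7% with FABP4. The median log2 difference of all spots moved from -0.05 to -0.66 with the housekeeping genes and to 0.57 without scaling.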

Other observations

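FABP4 was the adipocyte gene detected on all 4 arrays, and the values of WT1 and Aldh1a2 were also read against it, a view chosen after the data were seen. Per 1000 units of FABP4, Aldh1a2 had 8.49 and 8.67 in the controls, and 1.14 and 5.40 in the OE rats. The controls, far apart in array medians, were close on this scale, and both OE arrays lay below both controls on this scale. The share of all genes with such a gap on this scale was not counted, so the gap is not read as particular to Aldh1a2. WT1 had 5.38 and 14.6 in the controls and 13.7 and 4.35 in the OE rats, so that its groups overlapped on this scale too, with 1 high and 1 low array in each. All values of WT1 and Aldh1a2 but those of control 2 were under 2 times the background, and no test was made.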
